A study of Mus musculus with 24 samples.

Results

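Mural cells wrap the vessel wall. Smooth muscle cells encircle arteries and arterioles and set their diameter by contracting an actin and myosin apparatus, while pericytes sit on capillaries inside the endothelial basement membrane and are kept there by platelet-derived growth factor (PDGF) from the endothelium and by Notch signals. In the kidney the same lineage also gives rise to mesangial cells, which hold the glomerular capillary loops, and to the renin-producing cells of the afferent arteriole. Serum response factor (SRF) and its partner myocardin switch on the contractile genes through a short element called the CArG box, and angiotensin II contracts these cells through the angiotensin receptor type 1.

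The genes described here mark these cells: the contractile and cytoskeletal genes Acta2, Tagln, Myh11, Cnn1 and Des, the receptors Pdgfrb, Notch3 and S1pr3, and the G-protein regulator Rgs5. They make up 9 of the 30153 gene identifiers in the table, all 9 were found by symbol, and they were chosen by their TPM, a share of all transcripts in a library corrected for transcript length, across the groups below. Their levels and group differences are therefore descriptions of the values they were selected on, and the calls given for them show where they stand among all genes, not independent evidence.

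RNA was sequenced from 24 mouse samples in 6 groups of 4, all labelled kidney and strain C57/BL6, in a study of western diet in hypertensive mice that overexpress the human angiotensin receptor type 1. Western diet was given to 3 groups: Hap-I adults, Hap-I aged mice and Hap-II adults. The other 3 were Hap-I adults, Hap-I aged mice and adult C57 mice. Hap-I and Hap-II stand for 2 haplotypes in the labels, read here as haplotypes of the human receptor gene because of the series' title, and the C57 label names neither. Absence of the diet in the last 3 groups is inferred from labels that do not mention it, and no sex, exact age, promoter of the transgene or number of founder lines is given.

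The 8 Hap-I libraries without the diet did not carry the markers of their labelled tissue. The summed TPM of 12 nephron markers was 44.9 to 65.3 in these 8 libraries and 573 to 6224 in the other 16, whereas 8 neuron markers summed to 3810 to 4806 against 0.631 to 6.15. These 8 libraries are called brain-like below, the 16 others kidney-like, and no value is compared across the border with a test. Depth is unknown because TPM keep no read totals. In each kidney-like library all 8 housekeeping genes checked were above 0, and 15975 to 18449 genes were. The 4 C57 libraries differed from the 12 western diet libraries in more than the members: transcripts of the mitochondrial genome took 12.4 to 16.9% of TPM against 21.2 to 35.7%, and the summed TPM of 4 Y-linked genes was 0.730 to 0.954 against 0.485 to 40.2. Because these are bulk samples, fewer cells of a type and less RNA per cell cannot be told apart.

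The elements named above can be read in the sequence before the start of some members. RefSeq promoters on GRCm38.p6 were at hand for 6 of the 9 genes (Acta2, Cnn1, Des, Rgs5, Notch3 and S1pr3), and the 250 bases before each start were searched on both strands. A CArG-like box, taken as CC, then 6 bases of which at least 5 are A or T, then GG, was found in 1 of the 6 promoters, that of Acta2, which held 2, and in 8.59% of all 32851 promoters. A box with A or T at all 6 places was found in none of the 6 and in 1.47% of all. The MCAT element CATTCC, bound by TEAD factors, was also in the Acta2 promoter alone among the 6, and in 12.6% of all. TGGGAA, the core bound by the Notch effector RBPJ, occurred only in the Acta2 promoter among the 6, at -27 to -22 from the start, where it overlaps the second CArG-like box, and in 21.6% of all. TATANA was found in Rgs5 alone, in 2 overlapping places, and in 22.6% of all. The 3 sites of Acta2 are printed because this gene had the largest difference from C57 among the tested members in both comparisons on log2(TPM + 1) as deposited (Myh11 had the largest fold in both), and Rgs5 and Des because they had the highest correlations with it. Capitals mark the MCAT element (read on the other strand, -146 to -141), the CArG-like boxes (-84 to -75 and -34 to -25) and the overlapping TATANA matches of Rgs5; Des has no capitals because no motif was found in the stretch shown.
Acta2 MCAT, chr19:34255502-34255531, minus strand: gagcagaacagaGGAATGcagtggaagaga
Acta2 first CArG-like box, chr19:34255438-34255467, minus strand: gtgctgaggtCCCTATATGGttgtgttaga
Acta2 second CArG-like box, chr19:34255388-34255417, minus strand: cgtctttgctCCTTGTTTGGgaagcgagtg
Rgs5, 150 bases before the start, chr1:169655351-169655500, plus strand: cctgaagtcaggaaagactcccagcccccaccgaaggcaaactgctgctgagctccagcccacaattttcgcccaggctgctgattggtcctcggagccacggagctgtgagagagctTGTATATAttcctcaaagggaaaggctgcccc
Des, 150 bases before the start, chr1:75360142-75360291, plus strand: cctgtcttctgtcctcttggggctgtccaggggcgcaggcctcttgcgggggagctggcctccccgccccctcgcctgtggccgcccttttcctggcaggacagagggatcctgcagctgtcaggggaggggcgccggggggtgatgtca
GENCODE places the start of Acta2 further upstream, at 34255590, so that the 3 sites lie downstream of that start. Whether they fall within an exon there was not examined. A match is a description of letters, not a bound site.

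Among the kidney-like libraries, every member had its highest mean in C57 adults. Acta2, the smooth muscle α-actin (19: 34241090 to 34255590), was at 39.5, 49.4, 38.6 and 25.1 TPM in the 4 C57 libraries. On western diet it was lower, with 14.1, 5.58, 9.60 and 8.34 TPM in Hap-I adults, in aged Hap-I mice at 15.2, 17.3, 13.8 and 17.4, and in Hap-II adults at 6.77, 8.08, 4.26 and 6.13. All 4 C57 libraries lay above all 12 western diet libraries, and the C57 mean of 38.2 ± 10.02 TPM (SD, n = 4) was 4.06 times that of Hap-I adults, 2.39 times that of aged Hap-I mice and 6.05 times that of Hap-II adults.

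Tagln encodes transgelin, an actin-binding protein of smooth muscle (9: 45929619 to 45936058). It read 53.7, 53.2, 44.3 and 25.7 TPM in C57 adults, and 34.1, 14, 19.7 and 26.1 in the Hap-I adults given western diet. The aged Hap-I libraries gave 30.5, 19.0, 24.7 and 32.0 TPM, and the Hap-II libraries 12.3, 16.1, 13.0 and 15.2. Here the lowest C57 library fell inside the range of both Hap-I groups and only the Hap-II libraries lay wholly below C57. The C57 mean was 1.88 times that of Hap-I adults and 3.13 times that of Hap-II adults.

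Myh11, the smooth muscle myosin heavy chain and a marker of mature contractile cells (16: 14194535 to 14291372), was weakly expressed. It stood at 4.41, 7.16, 6.05 and 4.29 TPM in C57 adults, while the 12 western diet libraries ranged from 0, as listed for Hap-II library 3, to 2.40, with a median of 0.724. C57 lay above all 12. Cnn1, which encodes the actin-binding protein calponin (9: 22099216 to 22109630), read 1.64, 0.659, 1.30 and 0.492 TPM in C57 and 0 to 0.710 in the 12 western diet libraries. It never reached 1 TPM outside 2 C57 libraries and was too low to be tested. Des, the intermediate filament desmin of muscle and mesangial cells (1: 75360329 to 75368579), was at 10.03, 8.03, 12.3 and 6.24 TPM in C57 adults. The western diet libraries spanned 1.74 to 5.97 TPM for Des, with a median of 2.97, and none reached the lowest C57 library. As for Acta2, C57 stood apart for Des.

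Of the receptors, Pdgfrb binds PDGF and keeps pericytes on capillaries. Its C57 values were 9.49, 14.9, 14.6 and 10.4 TPM, and those of Hap-I adults on western diet were 5.11, 2.29, 2.65 and 1.31. Aged Hap-I mice gave 2.22, 4.68, 7.14 and 3.20 TPM and Hap-II adults 2.33, 1.89, 1.67 and 2.47, all below C57. Notch3, the Notch receptor of arterial mural cells (17: 32120820 to 32166852), was at 1.29, 2.16, 1.94 and 2.19 TPM in C57 and at 0.193 to 1.25 in the 12 western diet libraries. S1pr3, a receptor for sphingosine 1-phosphate that is coupled to contraction (13: 51408639 to 51422797), read 4.58, 7.56, 8.41 and 7.69 TPM in C57 against 0.650 to 2.88. For each of the 3 receptors the C57 libraries stood above all 12.

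Rgs5, which shortens G-protein signals from vasoconstrictor receptors and is abundant in pericytes (1: 169655501 to 169695813), had the smallest fold difference. It was at 19.1, 24.6, 21.2 and 16.9 TPM in C57 adults and at 14.5, 9.57, 12 and 8.32 in Hap-I adults on western diet. Aged Hap-I mice gave 21.3, 14.4, 10.9 and 15.4 TPM and Hap-II adults 10.5, 12, 7.08 and 7.91. The highest aged library overlapped C57, and the C57 mean was 1.84, 1.32 and 2.18 times those of the Hap-I adult, Hap-I aged and Hap-II adult groups. In all, C57 exceeded all 12 western diet libraries without overlap for 6 of the 9 members, against 13.7% of the 12923 tested genes. Of the 6, Myh11 and Notch3 reached 1 TPM in 4 libraries mainly through C57 and add nothing to that count. Of the 9, Cnn1 was too low to be among the tested genes.

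**Figure D1:**
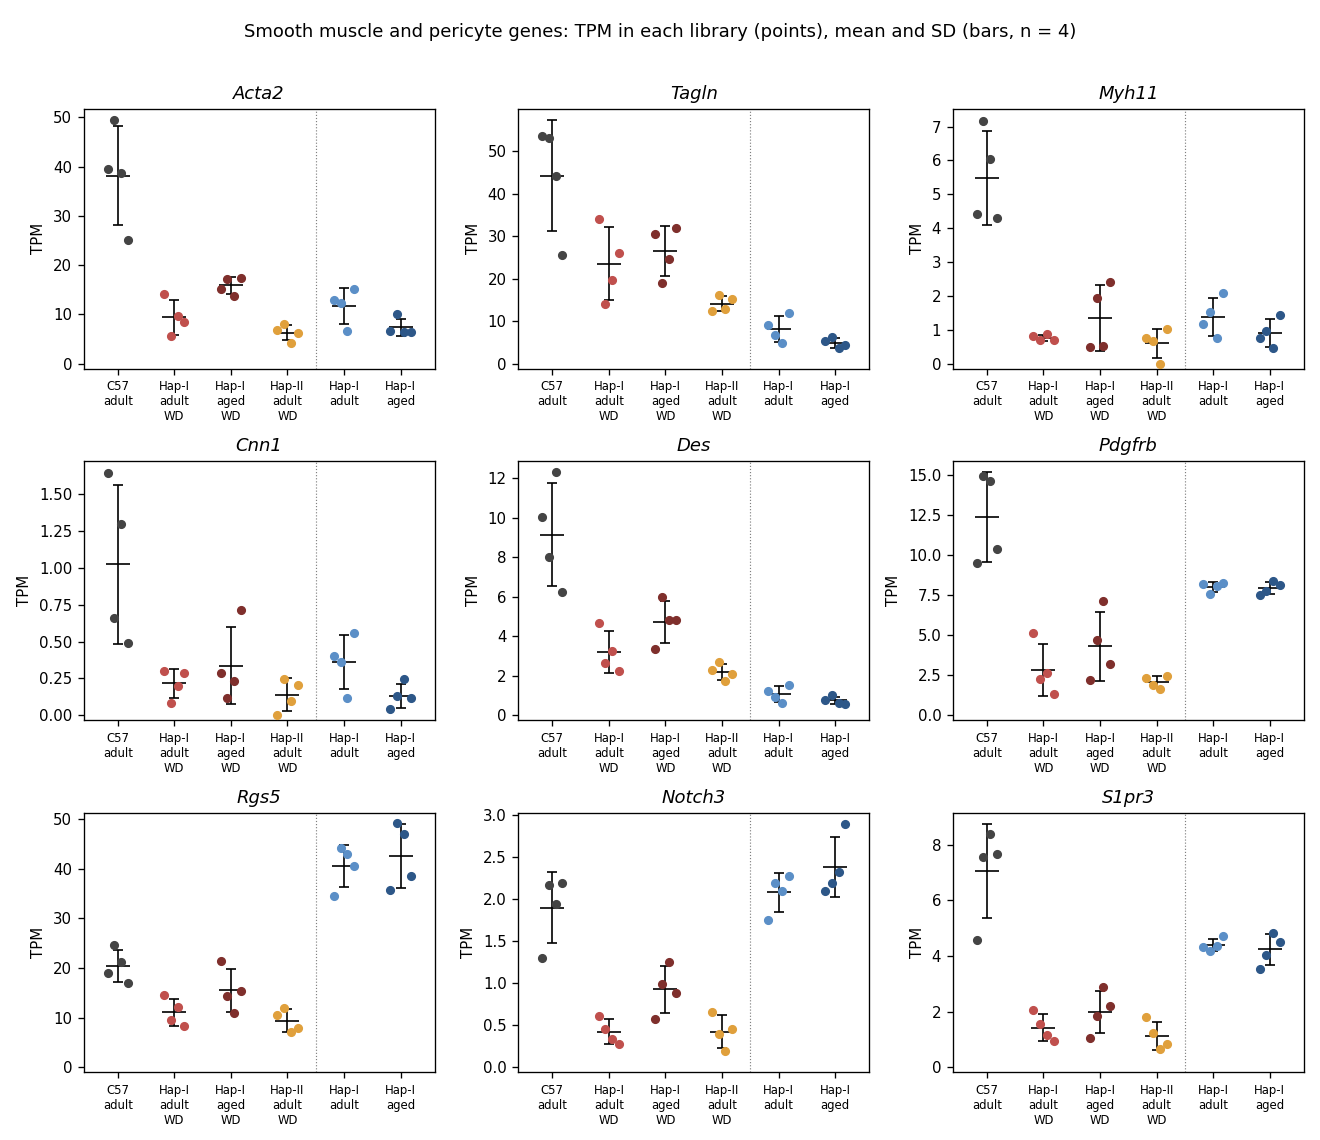
TPM of each of the 9 members (1 panel each, own linear axis) in every library, by group, with the mean and SD of 4 libraries; WD is western diet, and the dotted line separates the brain-like libraries. C57 adults stand above all western diet libraries for Acta2, Myh11, Des, Pdgfrb, Notch3 and S1pr3, and Rgs5 is highest in the brain-like libraries at 34.6 to 49.2 TPM.

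Set against all genes, the difference from C57 was broad. In the limma fit to the 16 kidney-like libraries, on log2(TPM + 1) with Benjamini-Hochberg adjustment at 0.05, 62% of 12923 genes were called between Hap-I adults on western diet and C57, and 59.7% were called lower. All 8 tested members were called lower, with differences from -0.84 for Rgs5 to -1.94 for Acta2 (standard errors 0.18 to 0.31) and a median of -1.50, beside -0.80 over all genes. Between Hap-II adults and C57, 39.7% of genes were called and 36.9% called lower. The 8 members were again all called lower, from -1.02 for Notch3 to -2.41 for Acta2, with a median of -1.78 beside -0.59 over all genes. Both comparisons use the same 4 C57 libraries. Myh11 and Notch3 passed the filter of 1 TPM in 4 libraries mainly through C57, so they had to differ and add nothing to these counts. Without Hap-II library 3 the count of genes called against C57 was 1803 in place of 5127, with the 8 members still called lower.

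The scale of the values bears on this. Rescaling each library by the median of gene ratios brings the median difference of all genes to -0.011 for Hap-I and -0.0032 for Hap-II, and it leaves 14.2% and 9.77% of genes called lower. Acta2 then differed by -0.97 ± 0.27 (SE) for Hap-I and -1.71 ± 0.27 for Hap-II, Myh11 by -1.16 and -1.55, Pdgfrb by -1.03 and -1.45, S1pr3 by -0.97 and -1.36, and Notch3 by -0.53 and -0.64. These 5 were still called lower in both. Of them, Myh11 and Notch3 add nothing here either, because they passed the filter mainly through C57. Des was called lower for Hap-II (-1.02) and not for Hap-I (-0.43), and neither Tagln (0.09 and -0.82) nor Rgs5 (0.11 and -0.37) was called in either. With a Y-linked covariate on the deposited scale or without mitochondrially encoded genes, Tagln (limma adjusted p = 0.0887 and 0.0963) and Rgs5 (0.102 and 0.0746) were not called for Hap-I. With C57 represented by library 4 alone, the one with the least adipocyte RNA, that group has a single library in the fit and none of the 7 members tested was called in either comparison. Their median difference was then -1.39 for Hap-I and -1.77 for Hap-II, with Acta2 at -1.39 and -1.86. That single library exceeded all 12 western diet libraries for 6 of the 9 members. This had to be so, because the whole C57 group did for the same 6, and it adds nothing to that count. The transgene, the diet, the sample series (titles of C57 carry the letter S, those on the diet A to C) and the C57 group's other features cannot be told apart in these comparisons.

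**Figure D2:**
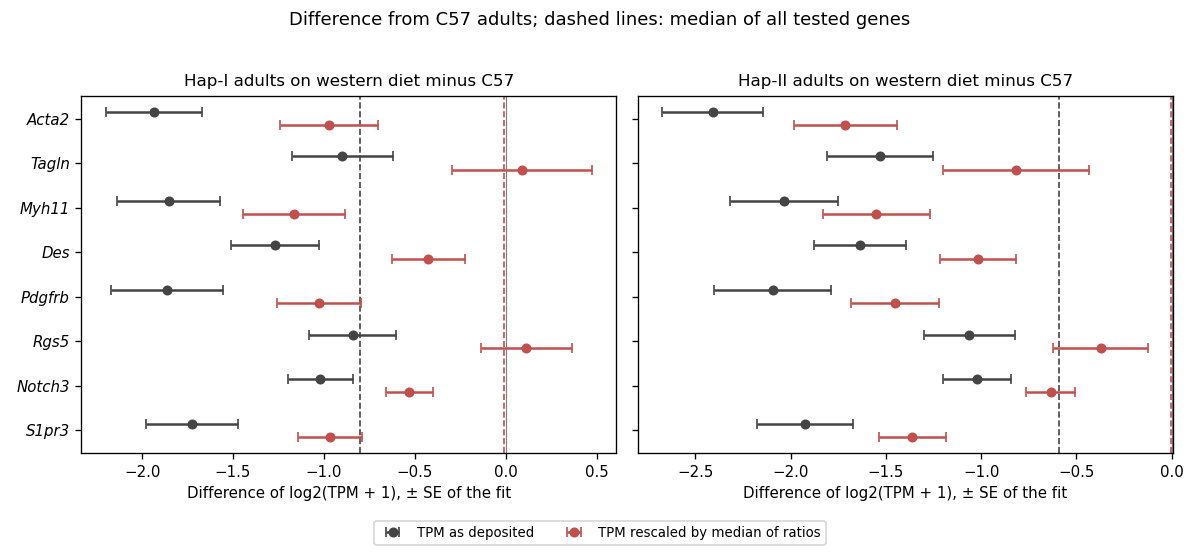
Difference of log2(TPM + 1) from C57 adults, with the standard error of the fit, for the 8 tested members in Hap-I adults (left) and Hap-II adults (right) on western diet; dark points are TPM as deposited, red points TPM rescaled by median of ratios, and dashed lines the median of all tested genes. Tagln and Rgs5 lie near the all-gene median in the Hap-I panel on both scales, whereas Acta2, Myh11, Pdgfrb and S1pr3 lie below it in both panels.

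Markers of other cells and housekeeping genes moved alongside. The summed TPM of 10 fibroblast markers was 87.6 to 192 in C57 against 10.8 to 67.7 in the 12 western diet libraries, that of 10 urothelial markers 61.8 to 221 against 2.74 to 68.6, and that of 8 adipocyte markers 50.9 to 1591 against 3.15 to 59.0. Endothelial markers summed to 446 to 521 TPM against 137 to 455, and nephron markers to 3694 to 6224 against 573 to 3966. The 8 housekeeping genes summed to 7435 to 8661 TPM against 4135 to 7263, and 6 astrocyte markers to 200 to 259 against 34.8 to 127. C57 lay above all 12 for 6 of 10 fibroblast, 5 of 10 urothelial, 1 of 8 adipocyte, 2 of 12 endothelial and 3 of 12 nephron markers. The share over the 12923 tested genes was 13.7%, and some of these markers were too low to be tested. Of the 8 housekeeping genes, C57 lay above all 12 for 1 and below all 12 for 1. The adipocyte marker Plin1 was listed at 0 in 3 of 4 C57 libraries, and striated muscle markers summed to at most 3.34 TPM in any kidney-like library. The part of these cells in the members' values was not tested. In all, 5 western diet libraries had the Y-linked Eif2s3y under 1 TPM, as all C57 libraries did. In these 5 libraries 7 of the 9 members were below every C57 library, the exceptions being Tagln and Rgs5. For 6 of the 7 this had to be so, because C57 lay above all 12 western diet libraries. The other was Cnn1, at 0 to 0.299 TPM in the 5 libraries. The share of all genes was not counted for these 5 libraries.

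Ratios within a library do not depend on how the library is scaled. Acta2 over Rgs5 was 1.48 to 2.07 in C57 adults, 0.583 to 1.00 in Hap-I adults on western diet, 0.715 to 1.27 in aged Hap-I mice and 0.602 to 0.774 in Hap-II adults. No western diet library reached the lowest C57 ratio. Tagln over Acta2 ran the other way, at 1.03 to 1.36 in C57 adults, 2.05 to 3.13 in Hap-I adults, 1.10 to 2.00 in aged Hap-I mice and 1.81 to 3.05 in Hap-II adults. The adult western diet groups did not overlap C57 in this ratio, and 1 aged library did. Rgs5 over Pdgfrb was 1.45 to 2.01 in C57, 2.84 to 6.34 in Hap-I adults, 3.21 to 6.34 in Hap-II adults and 1.52 to 9.58 in aged Hap-I mice, the widest spread of any group. Acta2 over Pdgfrb was 2.41 to 4.17 in C57, 2.44 to 6.36 in Hap-I adults and 2.48 to 4.27 in Hap-II adults. Aged Hap-I mice gave 1.93 to 6.85, so every western diet group overlapped C57 in this ratio. Acta2, Tagln, Rgs5 and Pdgfrb thus did not all differ from C57 by a common factor, though the ratio of Acta2 to Pdgfrb did not separate C57.

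**Figure D3:**
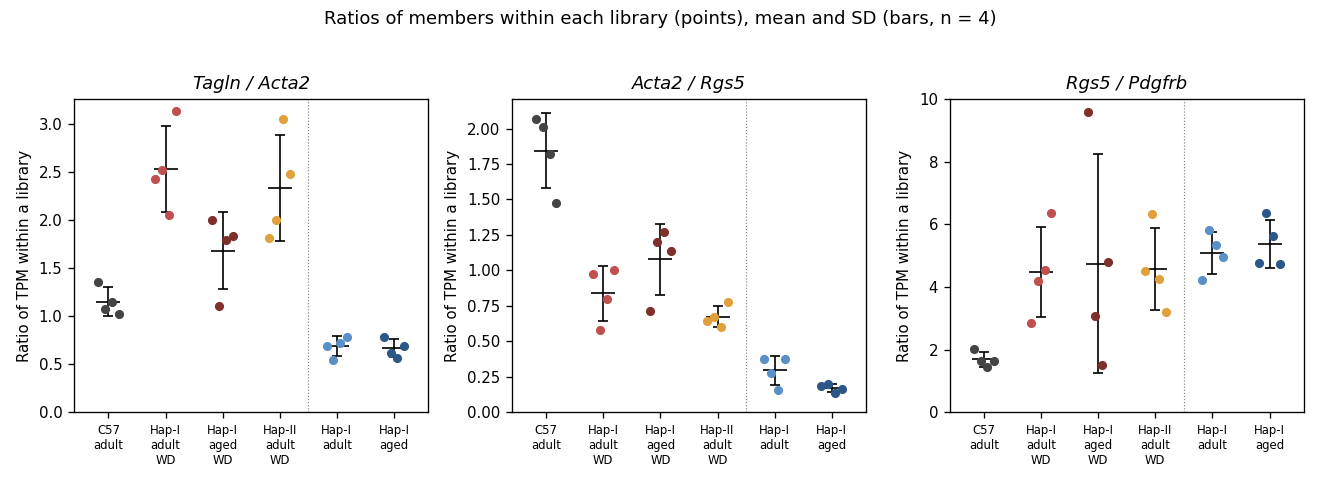
Ratio of the TPM of 2 members within each library, by group, with the mean and SD of 4 libraries, for Tagln over Acta2, Acta2 over Rgs5 and Rgs5 over Pdgfrb. Acta2 over Rgs5 separates C57 (1.48 to 2.07), the western diet libraries (0.583 to 1.27) and the brain-like libraries (0.135 to 0.376) without overlap.

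Age on western diet gave smaller differences. All 8 tested members had a higher mean in aged than in adult Hap-I mice, by 0.21 for Tagln to 0.76 ± 0.26 (SE) for Acta2, with a median of 0.43 beside 0.32 over all genes. None was called by limma, against 0.031% of 12923 genes, while 2 members, Acta2 and Notch3, and 2080 genes had an unadjusted p under 0.05. Acta2 was at 13.8 to 17.4 TPM in the aged group and at 5.58 to 14.1 in adults, so that the groups overlapped by 1 library. Notch3 was at 0.575 to 1.25 TPM against 0.276 to 0.614 and also overlapped. No member separated the age groups, whereas 6.13% of the 11687 genes at 1 TPM or more in 4 of these libraries were higher without overlap in aged mice. After median-of-ratios rescaling the difference of Tagln became -0.19, so its direction depends on the scale.

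Between haplotypes on western diet, the differences of the 8 tested members on log2(TPM + 1), Hap-I minus Hap-II adults, ran from 0.0012 for Notch3, with mean TPM of 0.421 and 0.424, to 0.63 ± 0.28 (SE) for Tagln, with a median of 0.23 beside -0.22 over all genes. None was called, against 0.0774% of genes, and 1 member, Tagln, and 421 genes had an unadjusted p under 0.05. Tagln was at 14 to 34.1 TPM in Hap-I adults and at 12.3 to 16.1 in Hap-II adults. Acta2 was at 5.58 to 14.1 against 4.26 to 8.08 TPM. Both genes overlapped between the groups, and no member separated them. Few genes did: of the 11457 at 1 TPM or more in 4 of these libraries, 0.297% were higher and 2.37% lower in Hap-I adults without overlap.

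In the brain-like libraries the balance of the members was another. Rgs5 was at 34.6, 44.1, 43.1 and 40.6 TPM in Hap-I adults and at 35.8, 49.2, 47.0 and 38.5 in aged Hap-I mice, above every kidney-like library. Tagln, at 3.61 to 12 TPM, and Des, at 0.593 to 1.54, lay below every kidney-like library. The other 6 members overlapped: Pdgfrb was at 7.52 to 8.37 TPM, below all C57 and above all western diet libraries. S1pr3 at 3.54 to 4.84 TPM and Notch3 at 1.75 to 2.89 were likewise above all 12 western diet libraries and overlapped the C57 range. Over all 15200 genes compared, 41.3% were higher and 11.7% lower without overlap in the brain-like libraries. Tagln over Acta2 was 0.548 to 0.788 there, below all 16 kidney-like libraries. Pdgfrb varied little among these 8 libraries, with a mean of 7.97 ± 0.318 TPM (SD, n = 8).

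Age was also compared within the brain-like libraries. Acta2 was at 13.0, 12.2, 6.62 and 15.2 TPM in Hap-I adults and at 6.66, 9.97, 6.36 and 6.33 in aged mice. Tagln was at 9.02, 6.70, 4.78 and 12 against 5.23, 6.16, 3.61 and 4.36. Both means were lower in aged mice, with differences of -0.58 ± 0.23 and -0.60 ± 0.24 (SE), yet the groups overlapped. Of the 7 members tested, none was called by limma, against 0.0296% of 13497 genes, and 2 had an unadjusted p under 0.05. Pdgfrb, Rgs5, Notch3 and S1pr3 differed by -0.01, 0.06, 0.13 and -0.05. Cnn1 and Des were too low to be tested there.

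The members also varied together among the 12 western diet libraries. The 6 members with a mean of at least 1 TPM (Acta2, Tagln, Des, Pdgfrb, Rgs5 and S1pr3) gave 15 pairs, and Pearson's r of log2(TPM + 1) was above 0 for all 15. By a permutation test adjusted over the pairs, 11 were below 0.05 with Pearson's r and 8 with Spearman's rho. Libraries were shuffled across groups, so differences between group means enter these p-values. Tagln and Des, among the 11, went from r of 0.630 to 0.151 after removing each group's mean. The r without group means was not tested. Pairs of other genes were not compared, so the count is not shown to be particular to the members. Acta2 and Des had the highest r, 0.913 (rho = 0.867, permutation adjusted p = 0.00045 and 0.00397), with 0.878 after leaving out the 2 libraries farthest from the median of Acta2 and 0.723 after removing each group's mean. Pdgfrb and Rgs5, both pericyte genes, had the lowest r, 0.365 (rho = 0.462), and -0.0421 after removing the group means. With group means removed, Acta2 kept r of 0.655 with Tagln and 0.662 with Rgs5, and Pdgfrb kept 0.774 with Des and 0.742 with S1pr3, while the 4 pairs of Tagln or Rgs5 with Pdgfrb or S1pr3 lay between -0.0421 and 0.0454. After rescaling, 9 of the 15 pairs were below 0.05. Each group holds 4 libraries, and all values of a library share its scale.

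**Figure D4:**
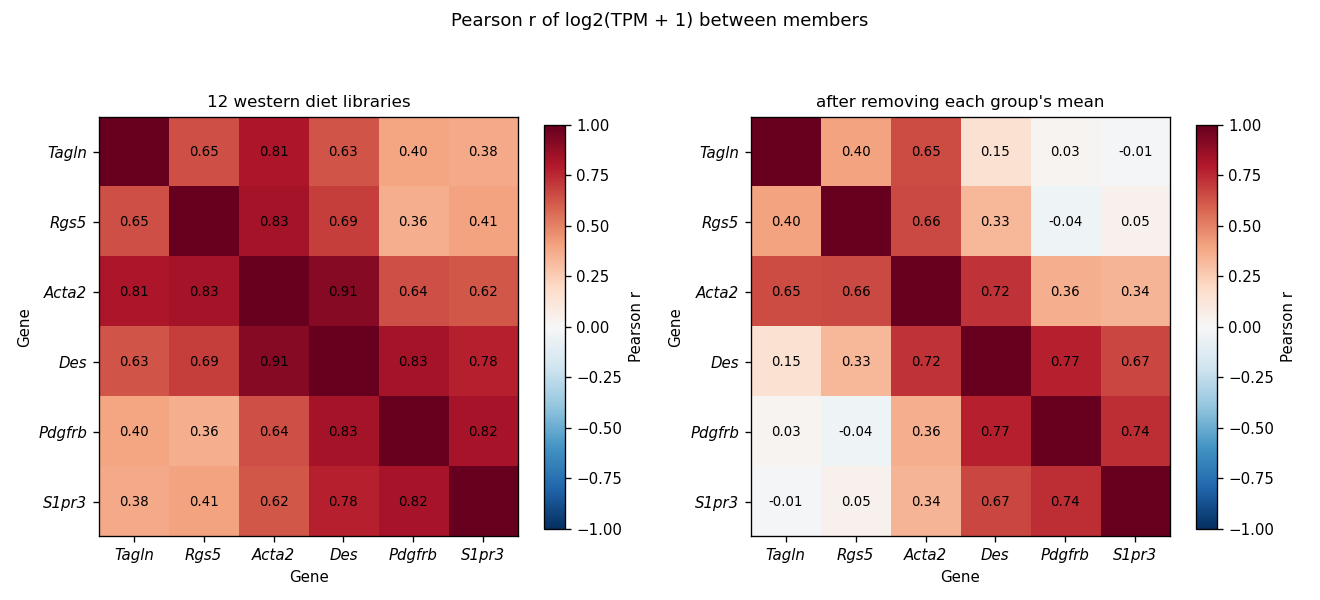
Pearson's r of log2(TPM + 1) between 6 members over the 12 western diet libraries (left) and after subtracting each group's mean (right), on a colour scale from -1 to 1. With group means removed, Acta2 is highest with Des (0.72), Rgs5 (0.66) and Tagln (0.65), and Pdgfrb with Des (0.77) and S1pr3 (0.74).

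Genes outside the list with the most similar pattern were sought by r over the 16 kidney-like libraries, among genes with a mean of at least 5 TPM. Nearest to Acta2 were Myl9, the regulatory light chain of smooth muscle myosin (r = 0.969), and Tpm2, a tropomyosin (0.949). Myl9 was also nearest to Des (0.973), followed by the collagen gene Col1a2 (0.943). Tagln was nearest to Tpm2 (0.945). Pdgfrb was nearest to Prelp (0.975), a matrix proteoglycan, Flna (0.973), filamin A, and Nid1 (0.967), a basement membrane protein, and Rgs5 to Pcp4l1 (0.955) and Sparc (0.902). Notch3 and S1pr3 both had Dusp16, a phosphatase of the MAP kinase pathway, as the nearest gene (0.974 and 0.955). It was 1 of many, since 513 of the 7695 genes compared had r above 0.9 with Notch3 and 159 with S1pr3. With Acta2 there were 20, and with Tagln and with Rgs5 2 each. Myh11 was nearest to Acaca (0.917) and Cnn1 to Col15a1 (0.846), at lower r. These r include the step between C57 and the other groups; over the 12 western diet libraries alone, Myl9 had r of 0.921 with Acta2 and 0.967 with Des, while Acaca had 0.514 with Myh11 and Col15a1 0.487 with Cnn1.

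Related genes were called lower than C57 on the deposited scale at shares near or above those of all genes. Those were 59.7% for Hap-I and 36.9% for Hap-II adults, and 14.2% and 9.77% after rescaling. Of 25 genes of the contractile apparatus, 20 were tested. Called lower than in C57 were 16 in Hap-I adults on western diet and 15 in Hap-II adults, and 7 in each after rescaling. Flna fell from 52.9 ± 6.26 TPM in C57 to 14.3 ± 8.10 in Hap-I adults (SD, n = 4; difference -1.95, limma adjusted p = 0.000825), and Vcl, vinculin of the focal adhesion, from 15.3 ± 4.04 to 2.47 ± 0.941. Smtn, smoothelin of contractile smooth muscle, fell from 36.1 ± 9.02 to 9.47 ± 4.47 in Hap-I adults, and Myl9 from 84.7 ± 13.2 to 26.2 ± 3.50 in Hap-II adults. Among the SRF and myocardin regulators, 7 and 6 of 10 tested genes were called lower in Hap-I and Hap-II adults, and 0 of 10 after rescaling in either. Of the 16 tested pericyte and mural markers 10 and 8 were called lower, and 1 and 2 after rescaling. For Hap-I adults this was near the share of all genes as deposited and below it after rescaling. Anpep, an aminopeptidase that pericytes share with the brush border of the proximal tubule, had the largest difference of them on log2(TPM + 1), with 10.9 ± 4.49 TPM in Hap-I adults against 62.6 ± 23.1 in C57.

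In the pathways of the receptors, 9 of 11 PDGF pathway genes were called lower in Hap-I adults on western diet and 8 of 11 in Hap-II adults, with 5 and 4 after rescaling. Beside the counts of this paragraph stand 59.7% and 36.9% of all genes, and 14.2% and 9.77% after rescaling. Pdgfra, the fibroblast receptor of the family, fell from 10.8 ± 2.71 to 2.46 ± 1.30 TPM in Hap-I adults. All 18 tested Notch pathway genes were called lower in Hap-I adults and 13 in Hap-II adults, and 5 in each after rescaling. Notch2 fell from 7.19 ± 1.92 to 1.57 ± 0.758 TPM in Hap-I adults, and Jag1, a ligand of the vessel wall, from 7.71 ± 1.97 to 2.42 ± 0.904 in Hap-II adults. In the sphingosine 1-phosphate pathway, 7 and 5 of 10 genes were called lower, and 3 and 1 after rescaling, the last near the share of all genes. Sgpl1, the lyase that degrades the lipid, fell from 35.5 ± 7.81 to 8.22 ± 2.85 TPM in Hap-I adults.

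Other regulators of contraction were called lower at shares that varied by list. Over all genes the shares were 59.7% for Hap-I and 36.9% for Hap-II adults as deposited, and 14.2% and 9.77% after rescaling. Of the lists given next, only the vasoactive receptors lay below the share of all genes after rescaling. Of 10 tested genes of the RGS family beside Rgs5, 7 and 6 were called lower in Hap-I and Hap-II adults, and 2 in each after rescaling. Rgs2, which limits angiotensin signalling, was at 7.70 ± 2.17 TPM in Hap-I adults against 18.9 ± 5.46 in C57. Of 12 tested vasoactive receptors 8 and 5 were called lower, and 1 in each after rescaling, that one being Npr1, the receptor for atrial natriuretic peptide. Npr1 fell from 17.6 ± 3.70 TPM in C57 to 5.62 ± 2.54 in Hap-I adults. Of 9 mesangial and juxtaglomerular markers 7 and 6 were called lower, and 2 in each after rescaling, with renin itself (Ren1) at 72.1 ± 14.7 TPM in C57 adults, 20.9 ± 5.52 in Hap-I adults and 23.3 ± 10.6 in Hap-II adults. No gene of these lists was called higher than in C57 on the deposited scale, though 1 or 2 of the PDGF and sphingosine 1-phosphate lists and 1 of the RGS family were after rescaling. None was called by limma for age on the diet, for haplotype or for age without the diet.

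**Figure D5:**
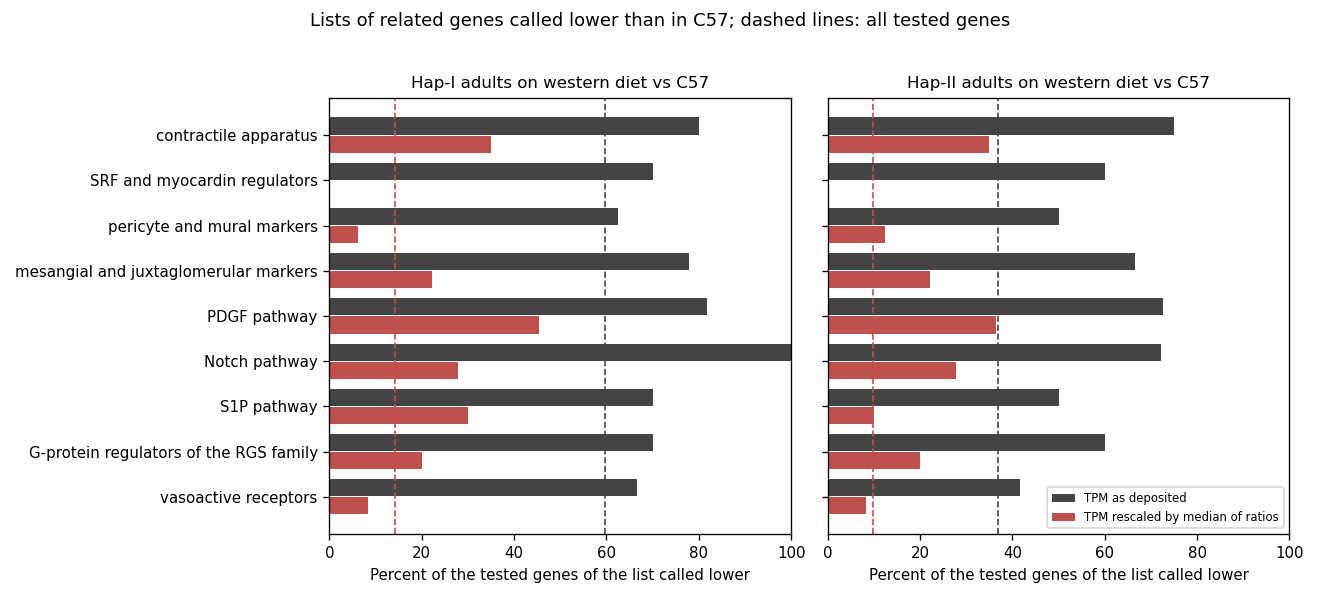
Percent of the tested genes of each list called lower than in C57 by limma, in Hap-I adults (left) and Hap-II adults (right) on western diet, as deposited (dark) and rescaled (red), with dashed lines for all tested genes (59.7% and 14.2% left, 36.9% and 9.77% right). Contractile, PDGF, Notch, sphingosine 1-phosphate, RGS, and mesangial and juxtaglomerular genes lie above the dashed lines on both scales. The sphingosine 1-phosphate genes do so only narrowly in Hap-II adults after rescaling. The SRF and myocardin regulators are at 0 after rescaling.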

How the data were processed

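Polyadenylated RNA of 24 samples was sequenced from stranded libraries, per the labels. The authors deposited 1 table of TPM per gene and library, and kallisto, DESeq2 and GRCm38 are listed, with neither version nor role, in the submitters' processing notes. Of 30153 identifiers, 29732 matched a symbol in GENCODE M21. Deposited TPM summed to 904693 to 944019 per library, and depth is unknown.

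The 16 kidney-like libraries, and separately the 8 brain-like ones, were fitted with limma 3.58.1 in R 4.3.3 (group means, eBayes with trend) on log2(TPM + 1), for genes at 1 TPM or more in at least 4 fitted libraries. Two-sided p-values were adjusted by Benjamini-Hochberg over all genes, with a threshold of 0.05. On this scale weakly expressed genes appear to differ less than they do. The code was tested on simulated data. Correlations used 100000 permutations, and promoters came from RefSeq (GRCm38.p6). Each member is described, with its 3 nearest genes by r and up to 4 called genes of each list with the largest difference. The members and lists were chosen with earlier results of these data known. The design states 4 animals per group, so p-values measure the spread between animals.

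Alternatives were quantile normalization, rescaling by median of ratios, a filter at 5 TPM or none, 0.1 as pseudocount, all 24 libraries, only the compared groups, a Y-linked covariate, the title number as a block and each library left out. Chosen after seeing the data were removal of mitochondrially encoded genes, 1 C57 library alone, 2 libraries left out for few genes, the 12 western diet libraries, and rescaled correlations. Tagln, Des, Notch3 and S1pr3 overlap genes on the opposite strand, and use of strand in counting is not given in the sources used here. At most 1.39% of the 31-base words of a member occur in another gene.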

Additional observations from a re-analysis of the deposited data

Results flagged for a closer look

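One value stood apart from its group. Acta2 was at 9.97 TPM in library 2 of aged Hap-I mice without western diet, and the other 3 libraries lay at 6.33 to 6.66 TPM. Its distance from the nearest of them, divided by the range of the 4 values, exceeded Dixon's 95% critical value for 4 samples. Over 54 groups of member values tested in this way, chance alone flags about 1 in 20, and only this 1 was flagged. Tagln was also highest in that library, at 6.16 TPM against 3.61 to 5.23.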

How the results depend on the processing

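The members were called lower than C57 in 8 of 8 cases whichever single library was left out, for Hap-I and for Hap-II adults, and in no setting was a member called for age or haplotype. The 8 include Myh11 and Notch3, which passed the filter of 1 TPM mainly through C57 and add nothing to the counts. In the Hap-I comparison 8 members became 5 with the filter of 5 TPM, with median-of-ratios rescaling and with quantile normalization, 6 with the Y-linked covariate or without mitochondrially encoded genes (Tagln and Rgs5 lost), and 0 with C57 library 4 alone, which leaves that group 1 library assumed to vary like the others. In the Hap-II comparison they became 5 with that filter, 6 with rescaling or quantile normalization (Tagln and Rgs5 lost), and 0 with that library. The filter leaves 5 members to test and that library 7. Genes called in the Hap-I comparison were 8009, and 4135, 3910, 3284 and 2 with rescaling, quantile normalization, a Y-linked covariate and C57 library 4 alone. In the Hap-II comparison they were 5127, and in the same order 2923, 2915, 1926 and 9, with 2201 without the 2 libraries with the fewest genes, 3413 without mitochondrially encoded genes, and 1803 to 6961 with single libraries left out (under 5127 by more than 1.5 times without Hap-II library 3 or 4 or C57 library 2, 3 or 4). For age on western diet 4 genes became 443 with all 24 libraries, 2 with only the compared groups or the 12 western diet libraries, and 2 to 22 with single libraries left out. For haplotype 10 became 4 without the 2 libraries with the fewest genes and 4 to 7 with single libraries left out. For age without the diet 4 became 65 with all 24 libraries, 1 with a pseudocount of 0.1 or no low filter, 0 with the Y-linked covariate and 1 to 5 with single libraries left out. The cause of these shifts was not tested.

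With the title number as a replicate block, 2 genes were called for age and 5 for haplotype, and no member. Same-numbered libraries correlated above 0.1 in 8 of 12 pairs and differently numbered ones in 11 of 36, with highest r of 0.539 and 0.563, and no label pairs them. No paired analysis was possible for C57 because its titles share no numbers with the others.

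Some differences changed sign, in each case to a small value. Against C57 in Hap-I adults these were Tagln and Rgs5, whose differences as deposited were not small (-0.90 and -0.84, both called lower). Tagln became 0.0893 with rescaling, and Rgs5 0.11 with rescaling and 0.0513 with quantile normalization. The direction of both thus depends on the scale. For age on the diet they were Tagln (-0.19 and -0.0811 in that order) and S1pr3 (-0.0593, quantile). For haplotype they were Myh11 (-0.0097 without the 2 libraries with the fewest genes, -0.0317 to 0.30 with single libraries left out), Pdgfrb (-0.0228 to 0.44 likewise) and Notch3 (-0.0308 without those 2 libraries, -0.0805 to 0.0786 with single libraries left out). For age without the diet they were Pdgfrb (0.0325 with the Y-linked covariate, -0.035 to 0.0107 with single libraries left out), S1pr3 (-0.10 to 0.0182 likewise) and Rgs5 (-0.0771 with rescaling, -0.0651 with quantile normalization, -0.14 with the Y-linked covariate, -0.0112 to 0.14 with single libraries left out).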
